A study of Mus musculus with 47 samples.

Results

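The 9 genes Cs, Idh2, Idh3a, Idh3b, Idh3g, Ogdh, Dlst, Sucla2 and Fh1, which encode enzymes of the tricarboxylic acid (TCA) cycle, were followed through a table of RNA-seq counts for 56748 mouse genes. The rule takes the genes by name as enzymes of the cycle and uses no measured value, although it was set with earlier results of these data known, and all 9 were found in the table and passed the filter on low counts in every fit. The samples came from B78-D14, an amelanotic mouse melanoma line derived from B16 that lacks Cdkn2a, whether edited or not. The study used a mitochondrial base editor to place truncating mutations in Mt-Nd5, a mitochondrially encoded subunit of respiratory complex I, so that only a share of the mitochondrial genomes of a cell, the heteroplasmy, carries the mutation.

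There were 4 cultures of control cells and 4 of cells labelled mt.11944 60% mutant, called here m.11,944 60%, and no treatment was given. Subcutaneous tumors came from control cells labelled WT (4 tumors), from cells labelled mt.12436 40% (7 tumors, m.12,436 40%) and from cells labelled mt.12436 60% (7 tumors, m.12,436 60%), grown in untreated, immunocompetent male C57BL/6 mice. The edited cells were sorted populations rather than single clones, and a tumor sample was a fragment of the tumor together with the host cells in it. The m.11,944 cultures were identified in the table by a code that one heading of the study's source data pairs with that line, so results on them rest on that heading. A count per gene does not show the edited base, so the heteroplasmy was not checked here.

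The TCA cycle runs in the mitochondrial matrix and oxidizes acetyl groups to carbon dioxide, passing electrons to NADH and then to complex I, the complex that contains Mt-Nd5. Citrate synthase joins acetyl-CoA to oxaloacetate, isocitrate and 2-oxoglutarate dehydrogenases each release carbon dioxide, and fumarase turns fumarate into malate. Because the NAD-dependent isocitrate dehydrogenase and 2-oxoglutarate dehydrogenase need NAD+, the cycle is tied to the redox balance that complex I helps to set. In many cultured cells the cycle is also fed from glutamine.

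Cs encodes citrate synthase and lies on GRCm39 at chr10:128172837-128198363. Idh2 (chr7:79741431-79765535) encodes the NADP-dependent isocitrate dehydrogenase of the matrix. Idh3a (chr9:54493575-54514730), Idh3b (chr2:130121227-130126467) and Idh3g (chrX:72820644-72830719) encode the catalytic subunit and both regulatory subunits of the NAD-dependent isocitrate dehydrogenase. Ogdh (chr11:6241551-6309233) and Dlst (chr12:85157027-85182486) encode the E1 and E2 components of the 2-oxoglutarate dehydrogenase complex. Sucla2 (chr14:73762759-73834335) encodes the ATP-forming beta subunit of succinyl-CoA ligase, and Fh1 (chr1:175425290-175453205) encodes fumarase. In the GENCODE vM39 annotation, exons of genes on the opposite strand cover part of the exons of 8 of the 9, Sucla2 being the exception, from 1.87% of the exonic bases of Fh1 to 33.7% of those of Idh3g, and whether the counting used strand is not given in the sources used here.

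Between 16475735 and 36173502 reads per library were counted on genes. The 9 genes were deeply counted, with 836 to 19535 reads per gene and library, so the spread between samples rather than the number of reads set the precision. Levels are in CPM, which divides each count by the reads counted in its library, on one TMM scale, a correction for differing RNA composition, across all 26 libraries. Melanocyte markers were low, as Mitf stood at 8.69 to 26.7 CPM in the cultures while Dct had 0 reads in all 14 m.12,436 tumors. Control tumor 003 stood apart, with Dct at 24.6 CPM and a summed level of 8 melanocyte markers of 62.6 CPM against 20.7 to 25.3 CPM in the other control tumors. The leukocyte marker Ptprc had 0 reads in the control cultures and 47.8 to 90.3 CPM in the control tumors.

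Cs was the most abundant of the 9 transcripts in cells, by a wide margin. Per length, as CPM per kilobase of the canonical transcript (RPKM), the mean level in control cells was 200 ± 19.6 for Cs (SD, n = 4) and 126 ± 15.8 for Idh2. Idh3b (97.0 ± 10.2), Idh3g (86.5 ± 10.01) and Dlst (75.6 ± 7.97) followed, and neighbours among these 3 overlapped between cultures. Ogdh (44.3 ± 16.4) overlapped Idh3a (38.4 ± 6.79), and Fh1 (26.0 ± 3.94) overlapped Sucla2 (25.9 ± 3.01) at the low end. The m.11,944 60% cells gave the same order of means, from 187 ± 14.05 RPKM for Cs to 25.3 ± 2.33 RPKM for Sucla2.

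The tumors held a different order. Idh2 came first, at 97.3 ± 8.42 RPKM in control tumors (SD, n = 4), ahead of Cs at 87.4 ± 6.09 RPKM, and their ranges overlapped in all 3 tumor groups. Fh1 came last, at 12.4 ± 1.16 RPKM in control tumors and 11.6 ± 0.658 RPKM in m.12,436 60% tumors (n = 7). The order depends on the transcript length used. With the length of all annotated exons of a gene, Cs ranked first in every group and Idh2 at rank 4 or 5 of the 9. The 3 subunits of one enzyme were not at equal levels, since Idh3a had 0.394 to 0.626 times the CPM of Idh3b in tumors and 0.483 to 0.870 times in cultures.

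**Figure D1:**
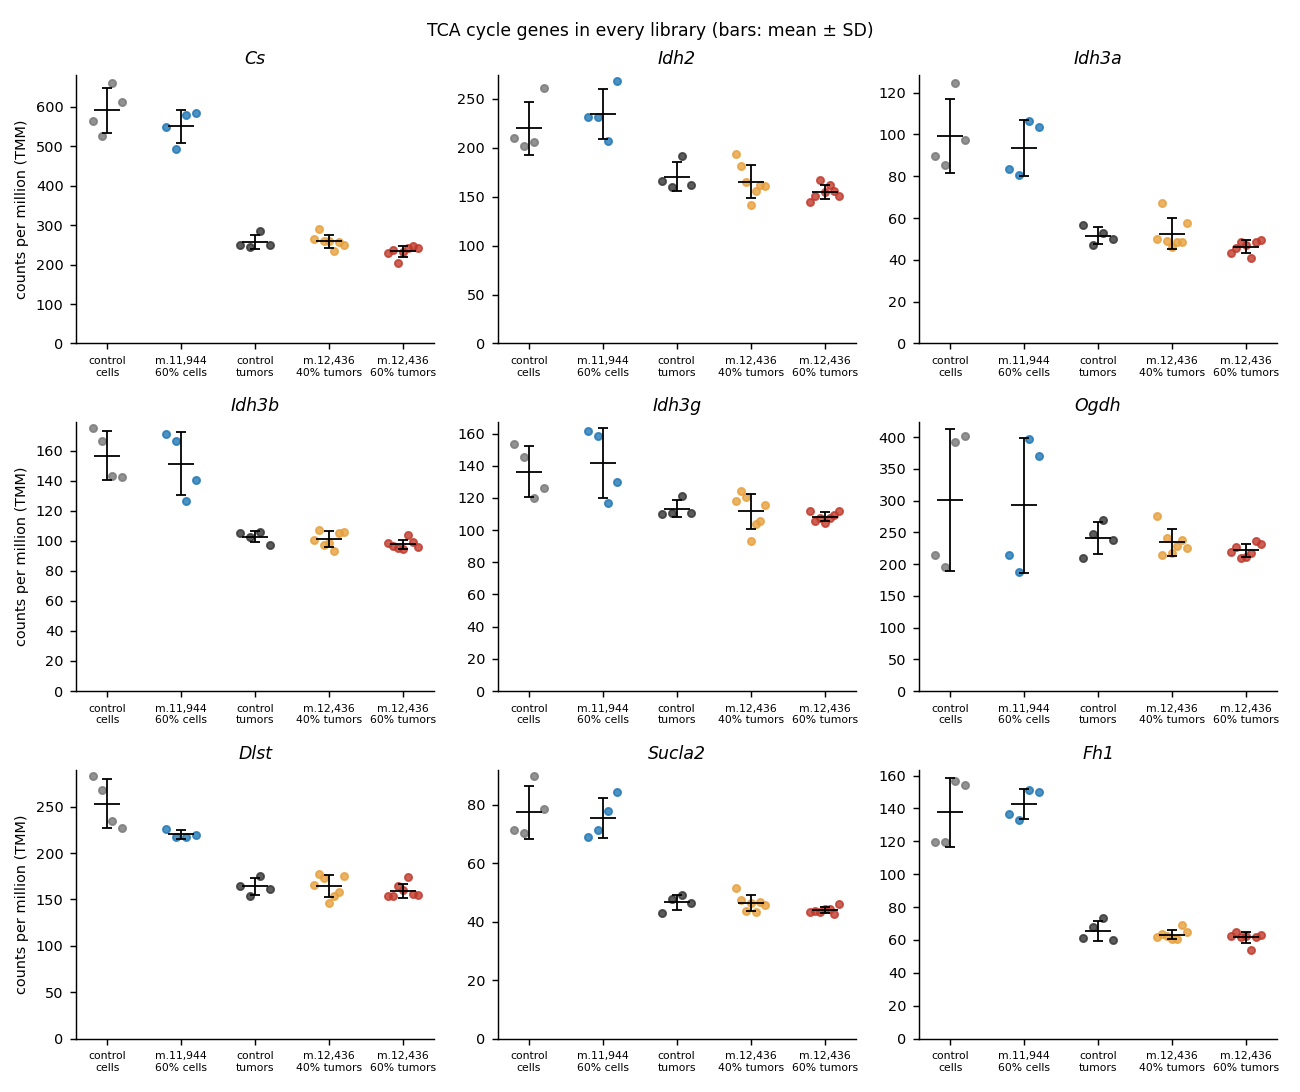
Level in CPM of the 9 TCA cycle genes in each of the 26 libraries, by group (points), with the mean and SD of the group (bars); each vertical axis starts at 0. Cs lies between 494 and 660 CPM in the cultures and between 205 and 290 CPM in the tumors, while the tumor groups overlap for every gene.

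In cultures, the widest differences in these genes followed the replicate number. Ogdh was at 214 and 196 CPM in control cultures 1 and 2, and at 393 and 402 CPM in control cultures 3 and 4. In m.11,944 60% cells it was at 214 and 188 CPM in cultures 1 and 2, and at 398 and 370 CPM in cultures 3 and 4. Cultures 3 and 4 of both lines thus lay far above cultures 1 and 2 of both, and the lines overlapped within each set.

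Idh3b and Idh3g, the regulatory subunits of isocitrate dehydrogenase, went the other way. Idh3b was at 175, 166, 143 and 142 CPM in control cultures 1 to 4 and at 171, 166, 127 and 141 CPM in m.11,944 60% cultures 1 to 4. Idh3g was at 153, 145, 120 and 126 CPM in control cultures and at 162, 158, 117 and 130 CPM in m.11,944 60% cultures. For both genes, cultures 3 and 4 lay below cultures 1 and 2 in both lines.

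Fumarase followed Ogdh at a smaller scale. Fh1 was at 120, 120, 157 and 155 CPM in control cultures 1 to 4 and at 137, 133, 151 and 150 CPM in m.11,944 60% cultures. Idh3a, the catalytic subunit, was at 89.6, 85.4, 124 and 97.4 CPM in control cultures and at 83.2, 80.4, 106 and 103 CPM in m.11,944 60% cultures, so that it moved against its own regulatory subunits. Cs and Sucla2 were also higher in cultures 3 and 4 of both lines without overlap, whereas Idh2 and Dlst overlapped. In all, 5 of the 9 were higher, 2 lower and 2 overlapping in cultures 3 and 4.

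This split was seen in the values, is given as a description and was not tested. Of 11874 genes with at least 10 counts in every culture, 54.4% did not overlap between these sets of cultures, so the 7 of 9 TCA cycle genes went with a change across much of the transcriptome. Of 9 further TCA cycle genes, 6 were higher and 1 lower in cultures 3 and 4, among them Sdhd, a membrane anchor of succinate dehydrogenase, at 100 to 111 CPM in cultures 1 and 2 and 157 to 178 CPM in cultures 3 and 4. The labels name no batch for these cultures, and what the numbers stand for cannot be told from them.

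**Figure D2:**
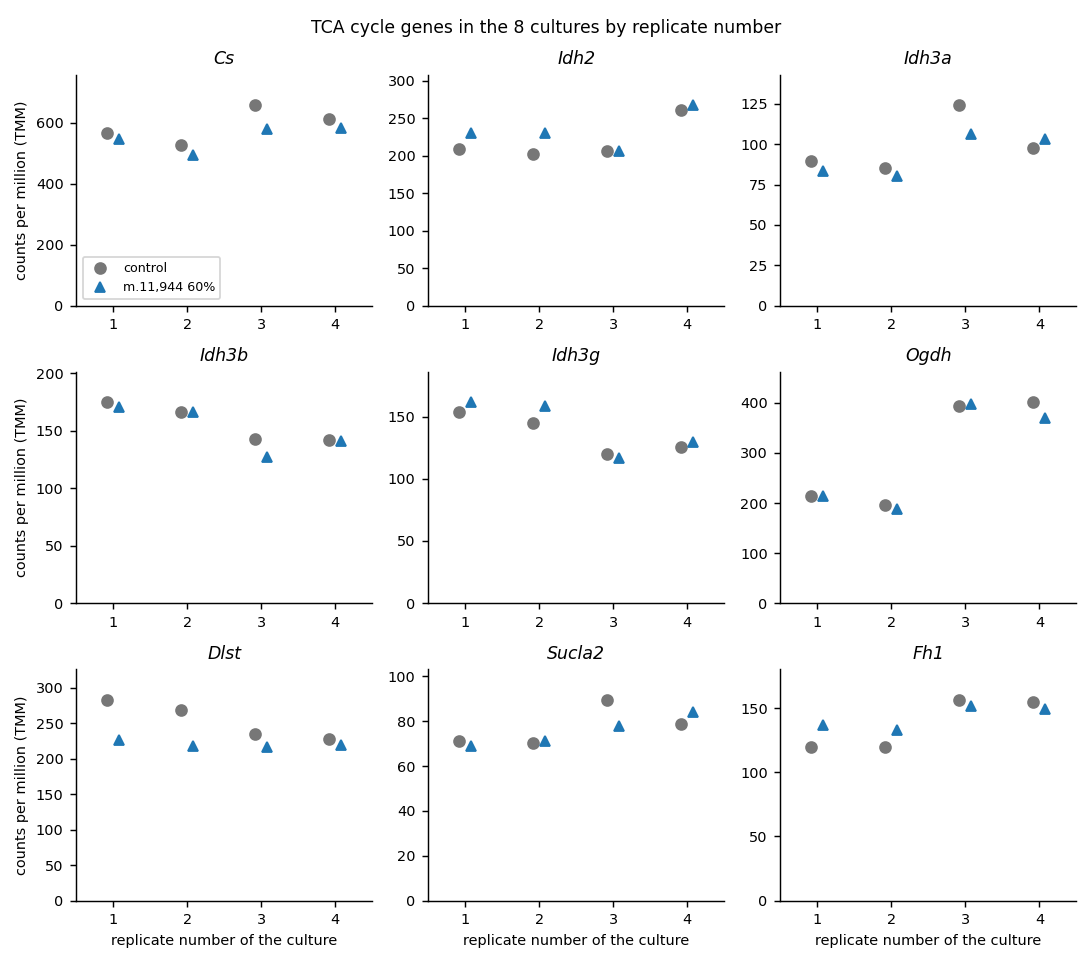
Level in CPM of the 9 genes in the 4 control cultures (circles) and the 4 m.11,944 60% cultures (triangles), by the replicate number in the label; axes start at 0. Ogdh lies at 188 to 214 CPM in cultures 1 and 2 and at 370 to 402 CPM in cultures 3 and 4 of both lines, and Idh3b and Idh3g lie lower in cultures 3 and 4.

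As Ogdh moved against Idh3b and Idh3g, the 250 bases before their annotated starts (RefSeq, GRCm38.p6) were searched on both strands for 7 short motifs of factors known at genes for mitochondrial proteins. Promoter entries matched 8 of the 9 genes by symbol, all but Idh3a, with 6 windows for Ogdh. The NRF1 core GCATGCGC was found in Ogdh alone and in 2.56% of all 27025 genes with an entry. The YY1 motif AAGATGGC and the ETS core CCGGAAG were found in Idh3g alone, and in 1.83% and 7.83% of all genes. The E-box CACGTG was found in Ogdh alone (6.86% of genes), the GC box GGGCGG in 6 of 8 (35.4%), the CCAAT box CCAAT in 5 of 8 (37.5%) and the ERR half-site AAGGTCA in none (4.70%). Idh3b, which moved with Idh3g, held neither the YY1 motif nor the ETS core. Cs, Sucla2 and Fh1, which moved with Ogdh, held no NRF1 core. Whether the motifs relate to the direction of a gene was not tested. None of the motif matches printed next overlap each other, and the motif is in capitals. The Ogdh stretch is on the plus strand at chr11:6292528-6292557 and the Idh3g stretches are on the minus strand at chrX:73787009-73787038 and chrX:73786983-73787012.
Ogdh NRF1 core: cgggctaggtgttgtGCGCATGCgtaactc
Idh3g YY1 motif: ttcccctccccAAGATGGCggaacagtgct
Idh3g ETS core: tgctctaggcaCCGGAAGggggcgtaagaa

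The comparison of m.11,944 60% with control cells asks whether a complex I mutation alters TCA cycle transcripts in culture. None of the 9 genes passed the threshold of an adjusted p under 0.1 in edgeR's quasi-likelihood test, none had an unadjusted p under 0.05, and 3 were higher and 6 lower in mutant cells. The same test called 5 of 12930 genes (0.0387%). The log2 fold changes of the 9 ran from −0.18 to 0.11, with a median of −0.026 beside −0.0041 over all genes tested. Ogdh had the widest 95% interval, −0.78 to 0.73 around −0.026.

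Dlst had the smallest p. It was at 283, 268, 235 and 227 CPM in control cultures 1 to 4 and at 226, 218, 217 and 219 CPM in m.11,944 60% cultures. The mutant cultures were tightly grouped just under the lowest control culture on this scale, and on the scale of the cultures alone the groups overlapped, as they did for the other 8 genes (3.36% of all genes did not overlap). The log2 fold change of Dlst was −0.18 ± 0.10 (SE, n = 4 and 4, edgeR, unadjusted p = 0.112, adjusted p = 1.00).

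Same-numbered cultures of both lines deviated together, with correlations of 0.718 to 0.832, so a fit with the replicate number as a block was also made. With the replicate block, 919 genes were called in place of 5 (7.11%), and still none of the 9. Dlst was at −0.18 (95% interval −0.33 to −0.029, unadjusted p = 0.0235, adjusted p = 0.159), and the interval of Ogdh narrowed to −0.16 to 0.12. The intervals of the other 7 genes lay within −0.22 and 0.26, so changes in either direction of up to about these sizes cannot be told from none here.

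Within cultures 1 and 2 alone, Dlst was lower in mutant cells (−0.28, adjusted p = 0.000674, edgeR, n = 2 and 2), and Idh2 (0.20, adjusted p = 0.0208) and Fh1 (0.20, adjusted p = 0.0177) were higher. That fit called 5482 of 12990 genes (42.2%), a larger share than the 3 of 9 TCA cycle genes. The labels do not say whether cultures 1 and 2 were grown separately, so these p-values measure only the spread between them. Within cultures 3 and 4 alone, edgeR called 0 genes (0%), and Dlst (−0.070), Idh2 (0.036) and Fh1 (−0.036) lay near 0. The difference between these sets of cultures was not tested, and leaving out cultures in this way was chosen after the values had been seen.

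Other genes of the pathway were read from lists. Of the 9 further TCA cycle genes, 0 were called in m.11,944 60% cells with or without the replicate block, and the smallest p was that of Dld, the E3 component shared by the 2-oxoacid dehydrogenases (−0.13, adjusted p = 1.00). At the entry of pyruvate into the cycle, 0 of 13 genes were called, and with the replicate block 2 were higher, namely Pdk4, a kinase that switches off pyruvate dehydrogenase (0.67, adjusted p = 0.0318), and Pcx, pyruvate carboxylase (0.58, adjusted p = 0.0458). Without the block, Pdk4 was at 0.70 with an adjusted p of 1.00. Among 10 genes for cytosolic and malic enzymes and carriers, 0 were called, with the oxoglutarate carrier Slc25a11 closest (0.22, adjusted p = 1.00), and with the block Idh1, the cytosolic isocitrate dehydrogenase, was higher (0.60, adjusted p = 0.0591). Among 9 genes of glutamine and aspartate metabolism, 0 were called and Got2 was closest (−0.23, adjusted p = 1.00). With the block the aspartate transaminases Got1 (−0.29, adjusted p = 0.0510) and Got2 (−0.23, adjusted p = 0.0775) were lower.

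In tumors of m.12,436 60% cells, all 9 genes had a mean below that of control tumors, by small amounts, and none passed the threshold. The same edgeR test called 374 of 16213 genes (2.31%), and 50.6% of all genes tested were lower. The log2 fold changes of the 9 lay between −0.15 and −0.040, with a median of −0.090 beside −0.0025 over all genes.

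Cs, citrate synthase, was at 250, 246, 285 and 251 CPM in the 4 control tumors. In m.12,436 60% tumors its lowest, median and highest values were 205, 238 and 248 CPM. The mutant tumors lay mostly below the controls with an overlap at 246 to 248 CPM. The log2 fold change was −0.14 ± 0.064 (SE, n = 7 and 4, edgeR, unadjusted p = 0.0432, adjusted p = 0.287).

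Idh2 was at 166, 160, 192 and 162 CPM in control tumors and at 144, 155 and 167 CPM (lowest, median, highest) in m.12,436 60% tumors, a log2 fold change of −0.13 ± 0.073 (adjusted p = 0.374, edgeR). Idh3a was at 56.5, 47.0, 52.9 and 50.0 CPM in control tumors and at 40.8, 47.2 and 49.7 CPM in m.12,436 60% tumors (−0.15 ± 0.091, adjusted p = 0.416, edgeR). In both, the ranges of the groups overlapped. None of the 9 genes separated these groups, against 4.26% of all genes, and the intervals of all 9 held changes from −0.34 to 0.084.

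The other 6 genes were closer still. Ogdh was at 241 ± 24.6 CPM in control tumors (SD, n = 4) and 222 ± 10.1 CPM in m.12,436 60% tumors (n = 7), and Dlst, its partner in the complex, was at 164 ± 8.95 and 160 ± 7.48 CPM. Sucla2 was at 46.5 ± 2.63 and 44.0 ± 1.18 CPM, and Fh1 at 65.6 ± 6.11 and 61.6 ± 3.48 CPM. The control tumors 001 to 004 had Fh1 at 61.1, 68.0, 73.1 and 60.1 CPM, so 2 of them lay among the mutant tumors. Without control tumor 003, the median of the 9 genes moved to −0.056, all 9 were still lower, and 0 passed the threshold.

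Against the same control tumors, those grown from m.12,436 40% cells were tested as well, and there the 9 genes lay on both sides of 0. Log2 fold changes ran from −0.050 for Fh1 to 0.026 for Idh3a, with 6 lower, 3 higher and none called. In this comparison edgeR and limma-voom called 0 of 16213 genes (0%), DESeq2 called 5, 825 genes had an unadjusted p under 0.05 in edgeR, and 0.444% of genes, none of them among the 9, did not overlap. Among 40% tumors, Idh3a ranged from 46.3 to 67.2 CPM and Cs from 235 to 290 CPM, in both cases with tumor 2 highest. Without control tumor 003, 1 of the 9 was lower in place of 6, and the median was 0.028.

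Between heteroplasmies, the 60% tumors had lower means than the 40% tumors for all 9 genes, and again none was called (1.81% of genes were). Cs was at 234 ± 14.3 CPM in 60% tumors and 259 ± 16.8 CPM in 40% tumors (SD, n = 7 each), a log2 fold change of −0.15 (95% interval −0.26 to −0.031, unadjusted p = 0.0151, adjusted p = 0.222, edgeR). Idh3a was at 46.3 ± 3.26 and 52.4 ± 7.39 CPM (−0.18, 95% interval −0.34 to −0.016, unadjusted p = 0.0332, adjusted p = 0.305). The other 7 lay between −0.096 and −0.040. No member separated the groups, as did 0.635% of all genes. The fits of the 3 tumor groups share the control or 60% tumors, so their fold changes are not independent of each other.

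**Figure D3:**
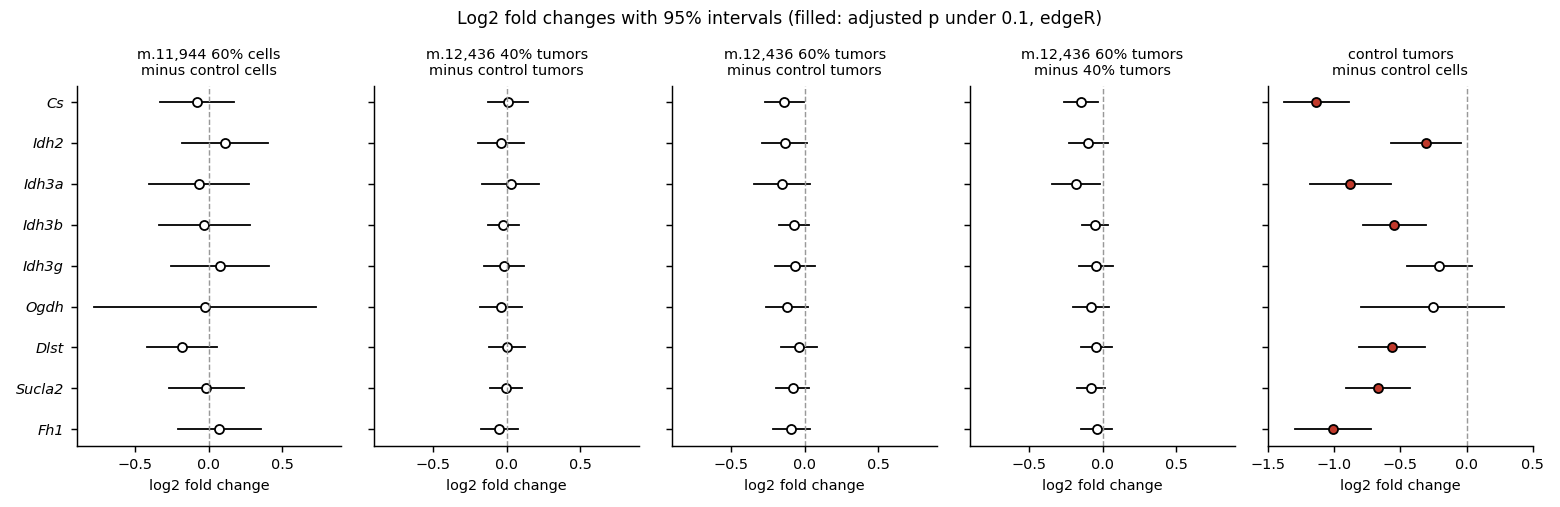
Log2 fold changes of the 9 genes (points) with 95% intervals (lines) in 5 comparisons, filled where the adjusted p was under 0.1 in edgeR. Only the comparison of control tumors with control cells has filled points, 7 of 9, and its axis is wider than the others.

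Host cell markers were read in the same fits, and few passed the threshold. Of 8 leukocyte markers, 7 had a fold change above 0 in m.12,436 60% against control tumors (Cd68 was at −0.074) and 8 had one against 40% tumors, with Itgam, an integrin of myeloid cells, called in both (0.38, adjusted p = 0.0261, and 0.42, adjusted p = 0.00611, edgeR) and Lyz2 in the second (0.52, adjusted p = 0.0744). None of the 8 muscle, 5 endothelial or 5 fibroblast markers passed in a comparison between tumor groups. Of the 3 melanocyte markers tested, Pmel was called lower in 60% than in control tumors (−2.21, edgeR), and 0 were called in the other 2 comparisons. Pmel was at 0.540 to 8.24 CPM in control tumors and at 0.461 to 0.730 CPM in 60% tumors. The summed level of the leukocyte markers was 1402 to 1866 CPM in control tumors, 1015 to 1723 CPM in 40% tumors and 1378 to 2735 CPM in 60% tumors. With the mean level of the leukocyte markers as a covariate, the median of the 9 genes was −0.059 in 60% against control tumors, with 8 lower, and −0.031 in 60% against 40% tumors, with 6 lower. The summed level of 8 skeletal muscle markers ran from 2.61 to 221 CPM, 45.8 to 320 CPM and 2.33 to 345 CPM in these groups, and with the muscle covariate the medians were −0.089 and −0.071. Among tumors with under 1 CPM of Ckm, muscle creatine kinase, which left 4 m.12,436 60% and 2 control tumors, all 9 genes were lower, with a median of −0.13 and 0 called. In bulk tumors, fewer cells of a type and less RNA per cell cannot be told apart.

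Around the cycle, 0 of the 9 further TCA cycle genes were called in any comparison of tumors with each other. Dld had the smallest p of them in 40% against control tumors (0.076, adjusted p = 0.938, edgeR). Of 13 genes at pyruvate entry, Pdk4 was higher in 60% than in control tumors (0.76, adjusted p = 0.0720) and was at 0.44 against 40% tumors (adjusted p = 0.222), and Pdp2, a phosphatase that reactivates pyruvate dehydrogenase, was closest in 40% against control tumors (0.13, adjusted p = 0.924).

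Of 9 genes of glutamine and aspartate metabolism, 2 passed the threshold in m.12,436 60% tumors. Ass1, argininosuccinate synthase, which joins aspartate to citrulline, was higher than in control tumors (0.78, adjusted p = 0.00922) and than in 40% tumors (0.58, adjusted p = 0.0182, edgeR). Got2, the mitochondrial aspartate transaminase, was lower (−0.27, adjusted p = 0.0888, and −0.25, adjusted p = 0.0744). Among the 9 tested genes for cytosolic and malic enzymes and carriers 0 were called, with the dicarboxylate carrier Slc25a10 at −0.29 in 60% (adjusted p = 0.130) and −0.19 in 40% against control tumors (adjusted p = 0.924), and malic enzyme Me1 at −0.31 in 60% against 40% tumors (adjusted p = 0.432).

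The ratio of Idh2 to the NAD-dependent isocitrate dehydrogenase was taken as the log2 CPM of Idh2 minus the mean of Idh3a, Idh3b and Idh3g. It was 0.77 ± 0.23 in control cells and 0.90 ± 0.15 in m.11,944 60% cells (SD, n = 4 each), and by culture 0.64, 0.67, 0.68 and 1.11 in control cultures 1 to 4 and 0.81, 0.85, 0.83 and 1.12 in m.11,944 60% cultures. Culture 4 of each line lay well above the other 3. The lines differed by 0.12 (two-sided exact permutation test, p = 0.371, adjusted p = 0.765 over 5 comparisons, where 0.0286 is the smallest p that 4 against 4 allows). With the cultures paired by replicate number, the ratio was higher in mutant cells in 4 of 4 pairs, by 0.16, 0.18, 0.15 and 0.0045 in cultures 1 to 4 (exact sign-flip permutation test, two-sided, p = 0.125, adjusted p = 0.312, where 0.125 is the smallest p that 4 pairs allow). This pairing of the ratio was added after its values were seen, and 4 pairs cannot reach the threshold.

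In tumors the ratio was 1.01 ± 0.081 in control (n = 4), 0.98 ± 0.11 in m.12,436 40% (n = 7) and 0.97 ± 0.077 in m.12,436 60% tumors (n = 7). The differences between tumor groups lay between −0.035 and −0.0037 (exact permutation tests, p = 0.497 to 0.945, adjusted p = 0.765 to 0.945). Control tumors and control cells differed by 0.23 (exact permutation p = 0.114, adjusted p = 0.571), so no comparison passed the threshold.

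The largest differences lay between tumors and cultures of the unedited line. All 9 genes had lower means in control tumors than in control cells, and 7 passed the threshold, by −0.31 to −1.13 on the log2 scale. Over 15047 genes tested, 29.9% were called lower in tumors, so 7 of 9 stands against that background. The median of the 9 was −0.57 beside 0.038 over all genes.

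Cs fell most, from 566, 526.4, 660 and 613 CPM in control cultures 1 to 4 to 250, 246, 285 and 251 CPM in the control tumors. The groups were far apart, and the log2 fold change was −1.13 ± 0.11 (SE, n = 4 and 4, adjusted p = 2.84e-05, edgeR). Fh1 fell from 120 to 157 CPM in the cultures to 60.1 to 73.1 CPM in the tumors, by 1.01 on the log2 scale (adjusted p = 0.000145). These enzymes stand at the entry of the cycle and near its end.

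Idh3a (−0.88, adjusted p = 0.000452), Sucla2 (−0.67, adjusted p = 0.000551), Dlst (−0.57, adjusted p = 0.00172) and Idh3b (−0.55, adjusted p = 0.00176) also fell. Idh2 fell by 0.31 (adjusted p = 0.0461), from 202 to 261 CPM to 160 to 192 CPM. For these 7 genes the ranges in tumors and cultures did not overlap, as was true of 26.3% of all genes, counting those lower in tumors. The call on Idh2 was lost without control tumor 002 (−0.30, adjusted p = 0.104) and with at least 10 counts required in every sample (−0.19, adjusted p = 0.205), a filter that shifted the median of the 9 to −0.44 and that of all genes to −0.020.

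Idh3g (−0.21 ± 0.11, adjusted p = 0.136) and Ogdh (−0.26 ± 0.24, adjusted p = 0.379) did not pass. Idh3g did so without control culture 3 (−0.28, adjusted p = 0.0417) or 4 (−0.26, adjusted p = 0.0909). For both, the value depended on the cultures used. Ogdh was at 210, 247, 270 and 237 CPM in control tumors, above control culture 2 at 196 CPM and below control cultures 3 and 4. With cultures 1 and 2 alone, Ogdh was higher in tumors (0.27, adjusted p = 0.0397), and with cultures 3 and 4 alone it was lower (−0.68, adjusted p = 0.000450, edgeR). Idh3g was lower with cultures 1 and 2 alone (−0.37, adjusted p = 0.00184) and was at −0.080 with cultures 3 and 4 alone (adjusted p = 0.469). The 7 genes named before were lower with either set, in which 33.6% and 31.8% of all genes were called lower.

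Host cell markers differed widely between these groups. All 8 leukocyte, 5 endothelial and 5 fibroblast markers were higher in control tumors, and the summed level of the leukocyte markers was 2.77 to 4.66 CPM in control cells and 1402 to 1866 CPM in control tumors. The part of host cells in the lower levels of the 9 genes was not tested, and culture medium and growth in a mouse differ between the groups as well.

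Other genes of the pathway were mostly lower in control tumors too. Of the 9 further TCA cycle genes, 7 were called lower, among them Dld (−1.07, adjusted p = 0.000104), Suclg1, the alpha subunit of succinyl-CoA ligase (−1.07, adjusted p = 0.000263), Mdh2, mitochondrial malate dehydrogenase (−0.79, adjusted p = 0.000850), and Sdhc of succinate dehydrogenase (−0.67, adjusted p = 0.000641, edgeR). Of 13 genes at pyruvate entry, 10 were lower and 1 higher, the kinase Pdk2 (1.90, named after its value was seen), and Pcx was at −2.25, Pdk4 at −1.497, the pyruvate dehydrogenase subunit Pdhx at −1.19 and Pdk3 at −0.92. Of 9 genes for cytosolic and malic enzymes and carriers, 4 were lower, namely Me1 (−1.35), Me2 (−0.79), Mdh1 (−0.36) and Aco1 (−0.31). Of 9 genes of glutamine and aspartate metabolism, 6 were lower, with the alanine transaminase Gpt2 at −3.32, Got2 at −1.26 and glutamate dehydrogenase Glud1 at −0.89, and Ass1 was higher (1.97, adjusted p = 0.000126).

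Across the 18 tumors, the levels of the 9 genes were set against the mean log2 CPM of leukocyte, melanocyte and muscle markers, giving 27 relations. Against leukocyte markers, all 9 correlations over the 18 tumors were negative, and 4 had an adjusted p under 0.1 by both measures. How often other genes correlate this way with these markers was not computed. For the genes not called, r within the m.12,436 60% tumors was 0.374 (Idh3a), 0.242 (Idh3g), −0.111 (Ogdh), 0.453 (Sucla2) and 0.649 (Fh1). Within the 40% tumors it lay between −0.799 (Sucla2) and −0.223 (Fh1) for them. Idh2 had Pearson's r = −0.754 (permutation p = 0.000320, adjusted p = 0.00864) and Spearman's rho = −0.744 (permutation p = 0.000640, adjusted p = 0.0173). Without the 2 tumors farthest from the median marker level, r was −0.795, and within the 7 tumors of m.12,436 40% and of 60% it was −0.912 and −0.604.

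For Cs, r was −0.624 (permutation p = 0.00560, adjusted p = 0.0674) and rho −0.678 (permutation p = 0.00268, adjusted p = 0.0312), with r = −0.668 without the 2 farthest tumors, −0.570 within 40% and −0.145 within 60% tumors. For Idh3b, r was −0.600 (permutation p = 0.00935, adjusted p = 0.0674) and rho −0.666 (permutation p = 0.00347, adjusted p = 0.0312), with −0.493 without the farthest tumors and −0.387 and −0.745 within groups. For Dlst, r was −0.555 (permutation p = 0.0171, adjusted p = 0.0923) and rho −0.641 (permutation p = 0.00486, adjusted p = 0.0328), with −0.574 without the farthest tumors and −0.365 and −0.617 within groups. CPM values of one library share their total, so more of one kind of RNA lowers the rest. Fh1 showed no such relation (r = −0.0285, permutation p = 0.912, and rho = 0.0898, permutation p = 0.724).

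**Figure D4:**
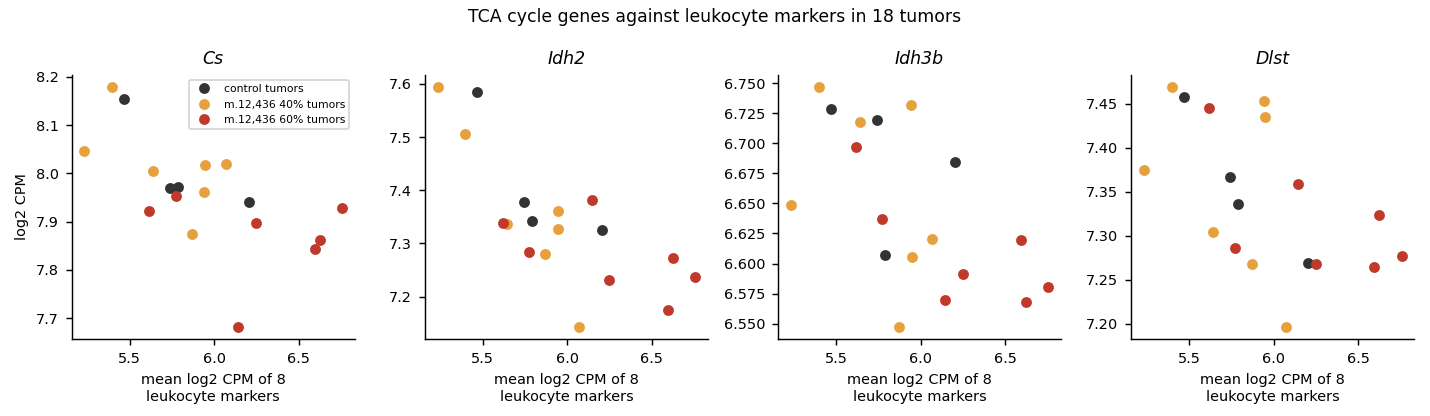
Log2 CPM of Cs, Idh2, Idh3b and Dlst (vertical axes) against the mean log2 CPM of 8 leukocyte markers (horizontal axes) in 18 tumors, colored by group. The points fall from left to right in each panel, with r from −0.754 for Idh2 to −0.555 for Dlst.

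Of the 8 melanocyte markers, 3 passed the filter on low counts in the tumor fit, and Dct had 0 reads in the m.12,436 tumors. Their mean log2 CPM therefore held many values near the floor. Against melanocyte markers, Fh1 alone had an adjusted p under 0.1, with r = 0.639 (permutation p = 0.00998, adjusted p = 0.0674) and rho = 0.193 (permutation p = 0.440, adjusted p = 0.742). Without the 2 farthest tumors, r was −0.182, so that relation rested on them, and r within the groups was 0.0905 and −0.225. Against muscle markers no relation passed, with r between −0.149 and 0.371 and an adjusted p of 0.298 or more.

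Between the 9 genes themselves, 35 of 36 pairs correlated positively across the 18 tumors, with a median r of 0.486. These values pool groups whose means differ. Within the 40% tumors r ran from −0.397 (Idh3a with Ogdh) to 0.955 (Idh3g with Dlst). Within the 60% tumors it ran from −0.893 (Dlst with Fh1) to 0.776 (Idh2 with Dlst). Over all 18 tumors, an adjusted p under 0.1 was reached by 19 pairs on Pearson's r and by 13 on both measures. How often pairs of other genes reach this in these tumors was not computed. The closest pairs joined Dlst with Idh3g (r = 0.745, permutation p = 0.000230, adjusted p = 0.00702, and rho = 0.645, permutation p = 0.00455, adjusted p = 0.0271) and with Idh2 (r = 0.733, permutation p = 0.000390, adjusted p = 0.00702, and rho = 0.839, permutation p = 6.00e-05, adjusted p = 0.00216). Without the 2 farthest tumors these were 0.590 and 0.792. Dlst and Idh2 also correlated within 40% and 60% tumors (0.659 and 0.776), while Dlst and Idh3g did so within 40% (0.955) but not within 60% tumors (−0.390).

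Dlst and Ogdh, which build one complex, were not closely related in tumors (r = 0.128, permutation p = 0.615, and rho = 0.00929, permutation p = 0.974), nor was Ogdh with Idh3a (r = −0.0210, permutation p = 0.932, and rho = 0.110, permutation p = 0.663). Without the 2 farthest tumors r was −0.203 and 0.105, and within 40% and 60% tumors it was 0.0789 and −0.496 for the first pair and −0.397 and 0.251 for the second. The 60% tumors spanned a narrow range, as the summed CPM of the 9 genes was 1101 to 1158 there, 1110 to 1281 in 40% tumors and 1168 to 1324 in control tumors.

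**Figure D5:**
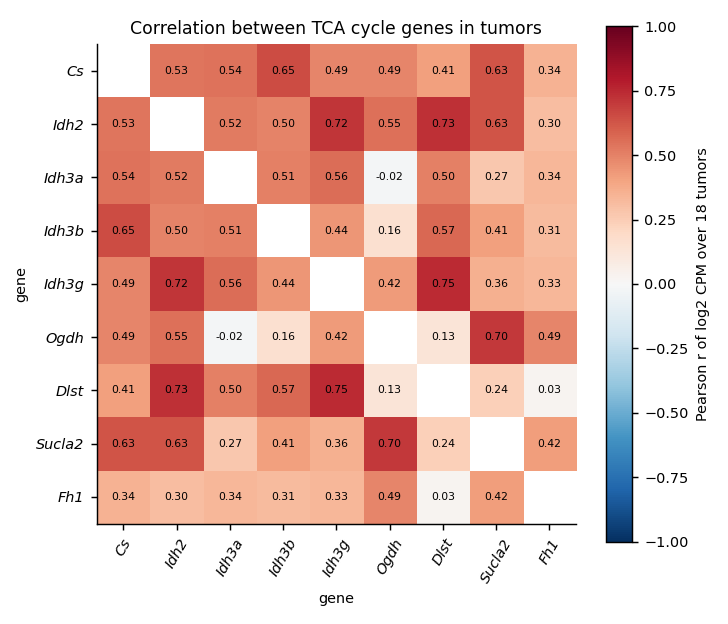
Pearson correlation of log2 CPM over 18 tumors for each pair of the 9 genes (rows and columns are genes, and color and number give r). Values run from −0.021 for Idh3a with Ogdh to 0.745 for Idh3g with Dlst.

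The genes whose pattern was most like the mean log2 CPM of the 9 were also listed. Across 18 tumors, out of 9942 genes with a mean log2 CPM of at least 3, these were Nme4, a mitochondrial nucleoside diphosphate kinase (r = 0.939), Mrpl10 of the mitochondrial ribosome (r = 0.933) and the mitotic ubiquitin-conjugating enzyme Ube2c (r = 0.924). Across the 8 cultures, out of 9165 genes, they were G6pdx, the first enzyme of the pentose phosphate pathway (r = 0.985), the RNA-binding protein gene Hnrnpd (r = 0.984) and the ubiquitin-activating enzyme Uba1 (r = 0.980). These values are descriptions over libraries that share culture sets or host cell content.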

How the data were processed

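Bulk RNA-seq of 8 cultures and 18 tumors was used. RNA extraction and libraries were made by GeneWIZ. STAR alignment to GRCm39 and gene-level counting by featureCounts were done by the authors, who deposited raw counts, without normalization, for 56748 genes in 47 columns. Of these, 26 columns were matched to a sample by name and 21 were not used. The members and lists were chosen with earlier results of these data known.

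Counts were tested with edgeR 4.0.16 in R 4.3.3 (TMM, filterByExpr, robust quasi-likelihood, two-sided, Benjamini–Hochberg over all genes tested, threshold 0.1 as in the study). Cells, tumors, and control tumors with control cells were fitted separately, over 12930, 16213 and 15047 genes. Labels do not say which cultures were grown separately, so p-values measure the spread between these samples. Levels are CPM with TMM over 26 libraries, log2 with a prior count of 2. Lengths came from GENCODE vM39, in which 56017 genes were found. Ratios and correlations were tested by exact or 100000-resample permutation.

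All 9 members are named. From 4 lists of related genes, those past the threshold were named, up to 4 per list and comparison with the smallest p, and otherwise the 1 with the smallest p. Some genes that this rule names are not reported here. The genes most like the members were the 3 with the highest r. Genes called under the replicate block and markers were named after their values were seen.

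Alternatives were limma-voom (limma 3.58.1), DESeq2 1.42.0, DESeq2 size factors, no filter or at least 10 counts in every sample, a threshold of 0.05, each sample left out, the replicate block, only the groups compared, and marker covariates. Replicate numbers pair the cultures (same-number r of 0.718 to 0.832, mean −0.264 for other numbers) but not the tumors (means of −0.164, −0.0027 and −0.016). On simulated data with 200 changed genes, changes of 0.5 on the log2 scale were found in 0% of cases for 4 against 4 cultures (12930 genes). For 60% against control tumors (16213 genes) the share was 48%. Changes of 1 were found in 45% and 76%. For control tumors against control cells (15047 genes), 0% of changes of 0.5 and 44.5% of changes of 1 were found. The simulated cultures were not paired and were tested without the replicate block, so these shares do not describe the block fit.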

Additional observations from a re-analysis of the deposited data

Results flagged for a closer look

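One sample lay far from the others of its group in 8 of 50 sets of values (9 genes and the Idh2 to Idh3 ratio in 5 groups), by the gap to its neighbour over the range of the group. Chance alone gives about 1 in 20 such sets. Control tumor 003 was highest for Cs (285 CPM) and Idh3g (121 CPM), and it is also the tumor with the most Dct. Control culture 4 was highest for Idh2 (261 CPM), and culture 4 was highest for the log2 ratio of Idh2 to Idh3 in both lines, at 1.11 in control and 1.12 in m.11,944 60% cells. Among m.12,436 60% tumors, tumor 3 was lowest for Cs (205 CPM) and tumor 5 was lowest for Fh1 (54.1 CPM). Among m.12,436 40% tumors, tumor 1 had the highest log2 ratio of Idh2 to Idh3 (1.20).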

How the results depend on the processing

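The number of TCA cycle genes called stayed at 0 under every setting named under the methods for the 4 comparisons within cells or within tumors, the replicate block included, and between 6 and 8 of 9 for control tumors against control cells (8 and 9 with only some cultures, added later). Only cultures 1 and 2, chosen after the values were seen, gave 3 called in m.11,944 60% cells. Of 900 alternative values of single genes, 46 changed sign, 15 of them in cells and 26 in 40% against control tumors, where values lay near 0. The cause of these changes was not tested.

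In 40% against control tumors, Sucla2 was at 0.0013 with DESeq2 size factors, 0.0016 with at least 10 counts in every sample and 0.0018 with the replicate block. With the muscle covariate, Idh3a was at −0.0063 and Idh3g at 0.00018, and with the leukocyte covariate Dlst was at −0.0058. The leukocyte covariate gave 0.018 for Dlst in 60% against control tumors, and 0.030 for Idh2, 0.0024 for Idh3g and 0.024 for Dlst in 60% against 40% tumors. In cells, only cultures 1 and 2 gave 0.014 for Idh3b, 0.0022 for Ogdh and 0.016 for Sucla2, and only cultures 3 and 4 gave −0.036 for Fh1. Ogdh in control tumors against only cultures 1 and 2 was at 0.27. With Idh3a alone as the denominator, the difference in the Idh2 ratio was 0.021 in 60% against control tumors and 0.080 in 60% against 40% tumors.

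With 1 sample left out at a time, the ranges in cells were −0.14 to 0.052 for Idh3a, −0.10 to 0.044 for Idh3b, −0.21 to 0.15 for Ogdh and −0.069 to 0.055 for Sucla2. In 40% against control tumors they were −0.026 to 0.064 for Cs, −0.071 to 0.029 for Idh2, −0.048 to 0.077 for Idh3a, −0.042 to 0.00046 for Idh3b, −0.052 to 0.023 for Idh3g, −0.096 to 0.023 for Ogdh, −0.021 to 0.043 for Dlst, −0.036 to 0.028 for Sucla2 and −0.077 to 0.012 for Fh1. The difference in the Idh2 to Idh3 ratio ranged from −0.059 to 0.0039 in 60% against control, from −0.069 to 0.0076 in 40% against control and from −0.025 to 0.034 in 60% against 40% tumors.

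Over all genes, DESeq2 called 84 in cells, 1056 in 60% against control, 5 in 40% against control and 744 in 60% against 40% tumors. The leukocyte covariate left 86 in 60% against control and 41 in 60% against 40% tumors, the replicate block gave 919 in cells and 178 in 60% against control tumors, and a threshold of 0.05 left 150 and 113 in the 60% tumor comparisons. Leaving out 1 sample gave 0 in cells, 66 (without control tumor 003) to 724 (without control tumor 004) in 60% against control tumors and 108 to 452 in 60% against 40% tumors. The replicate numbers do not pair the tumors, and the block called none of the 9 genes in any comparison it was fitted to.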
